A study of Homo sapiens with 16 samples.

Results

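The 261 zinc finger genes described here are the genes of human chromosome 19 whose symbol is ZNF, a number and at most 1 closing letter. They were chosen by symbol and by the first chromosome entry in the count files, out of 57500 genes, and not by any measured value. RNA was sequenced from 16 libraries, 4 per group, of HEK293T, an established line of human embryonic kidney cells that expresses SV40 large T. The groups were HEK293T with a lentivector for the mutant histone H2A(E92K) in DMSO, HEK293T with a lentivector for H2A in 1 µM JQ1 for 3 h or in 2.5 µM pinometostat for 24 h, and the same H2A line in DMSO, against which each was set. The sample labels give pinometostat in µM, while the treatment protocol writes the same figure in mM, and the DMSO samples are named for DMSO in their titles with no treatment listed. H2A(E92K) puts a lysine in the acidic patch of the nucleosome, JQ1 displaces BET bromodomain proteins from acetylated chromatin, and pinometostat inhibits the histone methyltransferase DOT1L. No label gives the vector's promoter, whether a line is 1 clone, or the time in DMSO, and the cells keep their own H2A genes. Since the same 4 H2A libraries with DMSO serve all 3 comparisons, time and handling cannot be told apart from the compound.

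Most zinc finger proteins of chromosome 19 combine an array of C2H2 fingers, each of which reads a few bases of DNA, with an amino-terminal KRAB domain. KRAB recruits TRIM28, which brings the histone methyltransferase SETDB1 and heterochromatin proteins, and many of these proteins silence transposable elements. The genes arose by tandem duplication and stand in clusters, and heterochromatin marks with bound ZNF274 have been described over their finger-coding exons in human cell lines. The design compares RNA levels after each chromatin perturbation, and the question here is how the levels of these genes differ and whether that follows their place on the chromosome.

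Promoters are printed for the member with the largest fall and the member with the largest rise among those named below, and for the most abundant member. Each is a window of 300 bases that spans the annotated start in RefSeq (GRCh38.p14), and is written 5′ to 3′ on the gene's strand, with capitals for the GC-box letters GGGCGG. ZNF772 lies at chr19:57477517-57477816, ZNF837 at chr19:58380981-58381280 and ZNF428 at chr19:43619580-43619879, all on the reverse strand.
ZNF772: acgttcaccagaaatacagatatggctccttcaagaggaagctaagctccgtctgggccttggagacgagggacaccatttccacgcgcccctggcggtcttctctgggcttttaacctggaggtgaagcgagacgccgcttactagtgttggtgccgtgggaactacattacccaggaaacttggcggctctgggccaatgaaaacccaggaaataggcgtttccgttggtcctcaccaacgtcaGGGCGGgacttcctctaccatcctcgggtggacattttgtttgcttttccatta
ZNF837: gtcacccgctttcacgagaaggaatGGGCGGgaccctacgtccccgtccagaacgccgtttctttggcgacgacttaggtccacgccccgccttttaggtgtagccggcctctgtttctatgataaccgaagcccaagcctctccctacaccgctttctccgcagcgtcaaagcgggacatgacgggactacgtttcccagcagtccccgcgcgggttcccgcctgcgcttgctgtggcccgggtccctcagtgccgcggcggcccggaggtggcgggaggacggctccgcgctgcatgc
ZNF428: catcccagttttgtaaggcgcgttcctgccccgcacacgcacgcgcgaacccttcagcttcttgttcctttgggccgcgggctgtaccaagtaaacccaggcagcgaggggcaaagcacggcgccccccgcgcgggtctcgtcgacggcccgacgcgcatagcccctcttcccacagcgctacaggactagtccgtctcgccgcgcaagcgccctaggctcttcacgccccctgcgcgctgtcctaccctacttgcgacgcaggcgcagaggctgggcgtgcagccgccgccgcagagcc
The ZNF772 and ZNF837 windows hold GGGCGG once each, on the printed strand, and the ZNF428 window holds none on either strand. The windows have a GC content of 54.0% for ZNF772, 65.7% for ZNF837 and 68.7% for ZNF428, with 16, 33 and 37 CG steps in that order. Of the 182 tested members with a promoter in the table, 65.4% held GGGCGG on either strand, against 45.0% of all 35116 promoters. TATAAA was in 2.20% of these members' promoters and 11.5% of all promoters. GCATGCGC, part of the NRF1 motif, was in 4.40% and 3.05%, and ACTACAATT, part of the ZNF143 motif, in 1.65% and 0.336%. None of these motifs contains another. Among the 55 promoters of members that fell with JQ1, 30 held GGGCGG and 3 held TATAAA, and among the 10 of members that rose, 8 held GGGCGG and 1 held TATAAA.

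Total counts ran from 17779692 to 27599686 per library. Mitochondrial transcripts made up 7.45% of counts in E92K replicate 4 and 16.5% in JQ1 replicate 1, where the remaining JQ1 libraries held 3.04% to 3.69% and H2A cells with DMSO held 3.66% to 4.02%. Genes that HEK293T expresses were present in all libraries, such as NEFM (56.9 to 231 TPM), CDH2 (22.0 to 56.2 TPM), PAX2 (1.48 to 4.28 TPM) and LHX1 (1.95 to 6.85 TPM). Of 8 markers of other cell types, PTPRC of blood, PECAM1 of endothelium and KRT5 of epithelium stayed at or below 0.0554 TPM, ALB at or below 0.152 TPM and CD68 at or below 0.292 TPM, while COL1A1 (32.1 to 74.7 TPM), EPCAM (2.32 to 4.88 TPM) and DCN (0.390 to 1.1008 TPM) were present in all groups. Whether replicates were grown as separate cultures is not in the labels, and the p-values below then reflect a spread between samples that may be technical only.

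Of the 261 members, 246 are protein-coding in GENCODE 29 and 15 are pseudogenes. A filter on low counts (at least 10 counts in enough libraries) kept 204, of which 2 are pseudogenes. Of the 57 others, 6 had no count in any library, namely ZNF177, ZNF534, ZNF578 and the pseudogenes ZNF209P, ZNF725P and ZNF861P, and 51 had some counts. Just inside the filter the lowest mean over 16 libraries was 0.342 CPM, and just outside it ZNF682 had 0.299 CPM and ZNF229 0.297 CPM. ZNF93, which silences LINE-1 elements in human stem cells, was among those left out, with 0 to 4 counts per library over all 4 groups. Between 228 and 240 members had at least 1 count in a library.

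Most members were expressed at low levels. In H2A cells with DMSO the median of the 204 tested members was 3.34 TPM, a scale that divides counts by exon length, against 9.92 TPM for all 17306 tested genes. Of all members, 179 had at least 1 TPM and 29 at least 10 TPM. The 6 most abundant were ZNF428 (101 ± 5.69 TPM, SD, n = 4), ZNF358 (83.9 ± 9.98 TPM), ZNF581 (82.0 ± 5.70 TPM), ZNF146 (65.1 ± 7.31 TPM), ZNF580 (42.5 ± 2.60 TPM) and ZNF787 (41.7 ± 2.94 TPM). In this order ZNF358 and ZNF581 differed by less than their spread, as did ZNF580 and ZNF787. ZNF146 consists of little but zinc fingers and lacks KRAB, and ZNF428, ZNF581 and ZNF580 hold 1, 4 and 3 C2H2 motifs, against a median of 12.5 over 246 coding members. ZNF580 and ZNF581 overlap on the same strand and share exon sequence, so their split of reads is uncertain.

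The members differed in sequence from the other tested genes. Exon GC content was taken throughout from the longest annotated transcript of each gene. Its median was 42.4% in the members against 48.8% for all tested genes, and 173 of the 204 members lay under 50%. Of 246 coding members, 154 hold a KRAB box motif (valine, methionine, any residue, glutamate, asparagine within the first 150 residues). These letters miss some KRAB domains: the 28 members between ZNF653 and ZNF791 have none, although ZNF441 and ZNF799 among them are KRAB proteins. Of the tested members, 45 share over 10% of their 50-base exon windows with another gene, and 66 overlap exons on the opposite strand. No source states whether the counting used strand, so reads of such pairs cannot be told apart.

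Summed over all members, the mean level on the CPM scale (reads per 1e6 of the TMM-scaled library) was below that of H2A cells with DMSO in JQ1 libraries and above it in pinometostat libraries; no test was made of the sums. The sums were 1712, 1821, 1921 and 2014 CPM in E92K libraries and 1807, 1556, 1598 and 1514 CPM in JQ1 libraries. They were 2141, 1906, 1934 and 1968 CPM in pinometostat libraries, against 1729, 1752, 1745 and 1898 CPM in H2A cells with DMSO. All 4 pinometostat libraries lay above the H2A libraries with DMSO, whereas JQ1 replicate 1 and E92K libraries overlapped them. On the deposited TPM scale the order differed: the sums were 1319 ± 120 TPM for E92K, 1069 ± 185 TPM for JQ1, 1305 ± 103 TPM for pinometostat and 1376 ± 54.9 TPM for H2A with DMSO (SD, n = 4 each). In bulk RNA, fewer cells of a kind and less RNA per cell cannot be told apart.

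**Figure D1:**
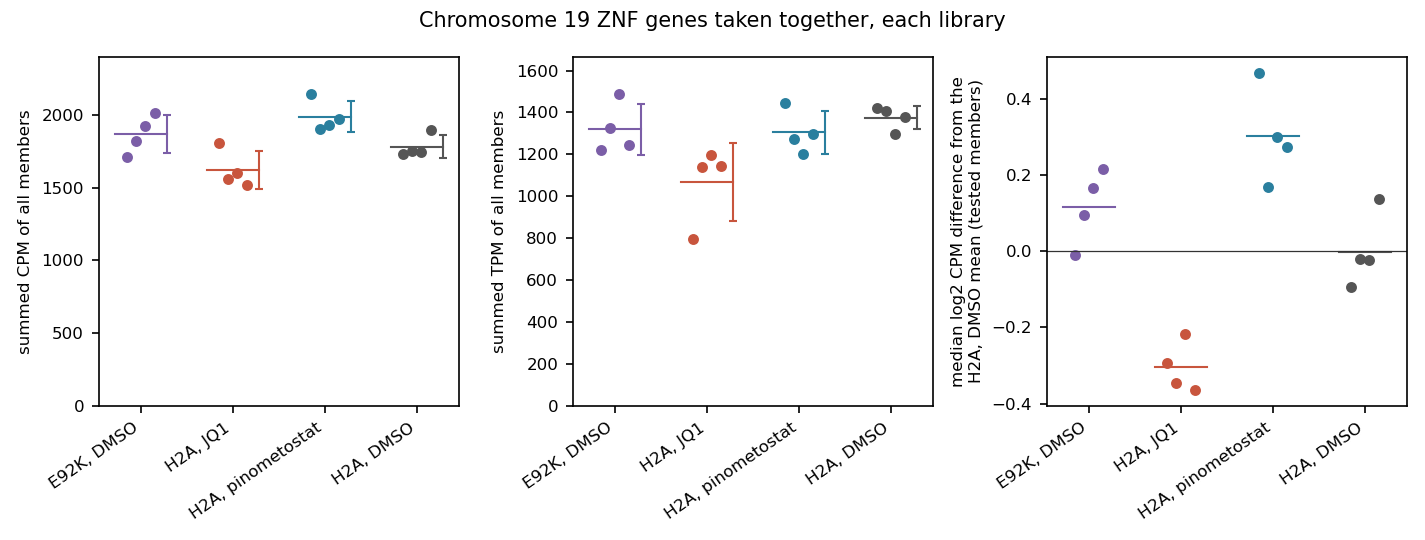
Summed CPM (left), summed TPM (middle) and the median log2 CPM difference from the H2A DMSO mean over 204 tested members (right), a point per library, with lines for group means and, in the left and middle panels, bars for the SD. The median difference runs from -0.36 to -0.22 in the JQ1 libraries and from 0.17 to 0.47 in the pinometostat libraries, against -0.10 to 0.14 in H2A cells with DMSO. Neither treated group overlaps the controls in the right panel. There the controls are set against a mean they are part of, which narrows their spread.

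After 3 h of JQ1 more members fell than rose. Of the 204 tested members, 64 fell and 10 rose (adjusted p below 0.05, quasi-likelihood test of edgeR with Benjamini-Hochberg adjustment over all genes), where 10.4% of all 17306 genes fell and 7.16% rose. At an unadjusted p below 0.05 there were 96 members (47.1%), against 31.1% of all genes. The calls were 31.4% of the members lower and 4.90% higher, with 20 falls and 2 rises of at least 1 on the log2 scale. The median log2 fold change of the members was -0.23, against 0.04 over all genes tested. In 66 members all 4 JQ1 libraries lay below all 4 H2A libraries with DMSO (32.4%, against 12.2% of all genes), and in 9 all lay above (8.26% of all genes). Of the ZNF genes on the other chromosomes, 65 of 244 fell and 10 rose, with a median of -0.20. Of the chromosome 19 genes whose symbol does not match the pattern, 55 of 977 fell and 111 rose, with a median of 0.20. Without JQ1 replicate 1, the library with the high mitochondrial share, 69 members fell and 11 rose, and 71 of the 74 calls remained. In that fit 2099 of all genes fell and 1108 rose, against 1805 and 1239 with all libraries. On the log2(TPM + 1) scale 72 members fell and 2 rose, where 2174 of all genes fell and 209 rose. The median of all genes moved to -0.21 on that scale and that of the members to -0.38.

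By the rule for naming (the 8 largest changes in each direction among called members with a mean of at least 1 CPM), the falls were of genes between 0.293 and 16.7 CPM per library. ZNF772 (ENSG00000197128, chr19:57466663-57477570, reverse strand) had 0.435, 0.928, 1.45 and 1.45 CPM in JQ1 libraries, against 3.87, 5.22, 4.51 and 5.26 CPM in H2A cells with DMSO. Every JQ1 library was thus below every control, and the log2 fold change was -2.10 ± 0.26 (SE, edgeR adjusted p = 2.33e-05). ZNF649 (ENSG00000198093, chr19:51889224-51905040, reverse strand), a KRAB repressor that lowers serum response element and AP-1 reporter activity, had 4.28, 6.01, 5.49 and 6.34 CPM with JQ1, against 12.01, 13.5, 13.4 and 16.7 CPM with DMSO. Its difference of -1.32 ± 0.14 had the smallest adjusted p among the members (4.42e-06, edgeR). An antisense gene, ZNF649-AS1, overlaps its exons. ZNF583 (ENSG00000198440, chr19:56397966-56436035) had 0.653, 0.781, 1.04 and 0.886 CPM with JQ1, against 2.33, 2.86, 2.81 and 3.19 CPM with DMSO, a difference of -1.72 ± 0.25 (edgeR adjusted p = 0.000109). JQ1 libraries of ZNF583 were again all below the controls.

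ZNF285 and ZNF114 rested on few reads. ZNF285 (ENSG00000267508, chr19:44382298-44401608) had 5, 15, 7 and 8 counts in JQ1 libraries, against 53, 38, 33 and 50 in H2A cells with DMSO (-1.80 ± 0.33, edgeR adjusted p = 0.000927). ZNF114 (ENSG00000178150, chr19:48172318-48287608) had 17, 6, 7 and 18 counts with JQ1, against 47, 59, 48 and 81 with DMSO (-1.73 ± 0.44, edgeR adjusted p = 0.0103). At such counts the groups did not overlap, but the standard errors were among the widest of the named members. ZNF329 fell by 1.47 on the log2 scale (1.31 ± 0.721 CPM with JQ1 against 3.75 ± 0.523 CPM with DMSO), ZNF792 by 1.44 (1.28 ± 0.480 CPM with JQ1 against 3.56 ± 0.507 CPM with DMSO) and ZNF345 by 1.24 (1.69 ± 0.361 CPM with JQ1 against 3.95 ± 0.759 CPM with DMSO, SD, n = 4). ZNF260, whose rodent counterpart works with GATA4 in heart muscle, had 5.58, 6.15, 6.68 and 8.49 CPM with JQ1, against 13.9, 15.6, 14.6 and 19.3 CPM with DMSO. It was named for that role after its values were seen, and fell by 1.23 on the log2 scale (SE 0.15). Of the 6 most abundant members only ZNF146 was called, at -0.35 ± 0.11 (edgeR adjusted p = 0.0360), with 55.04, 61.9, 69.6 and 73.5 CPM with JQ1, against 89.9, 77.9, 75.1 and 89.7 CPM with DMSO. This call is lost in 12 of 24 other settings, and ZNF565 overlaps the gene on the opposite strand.

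**Figure D2:**
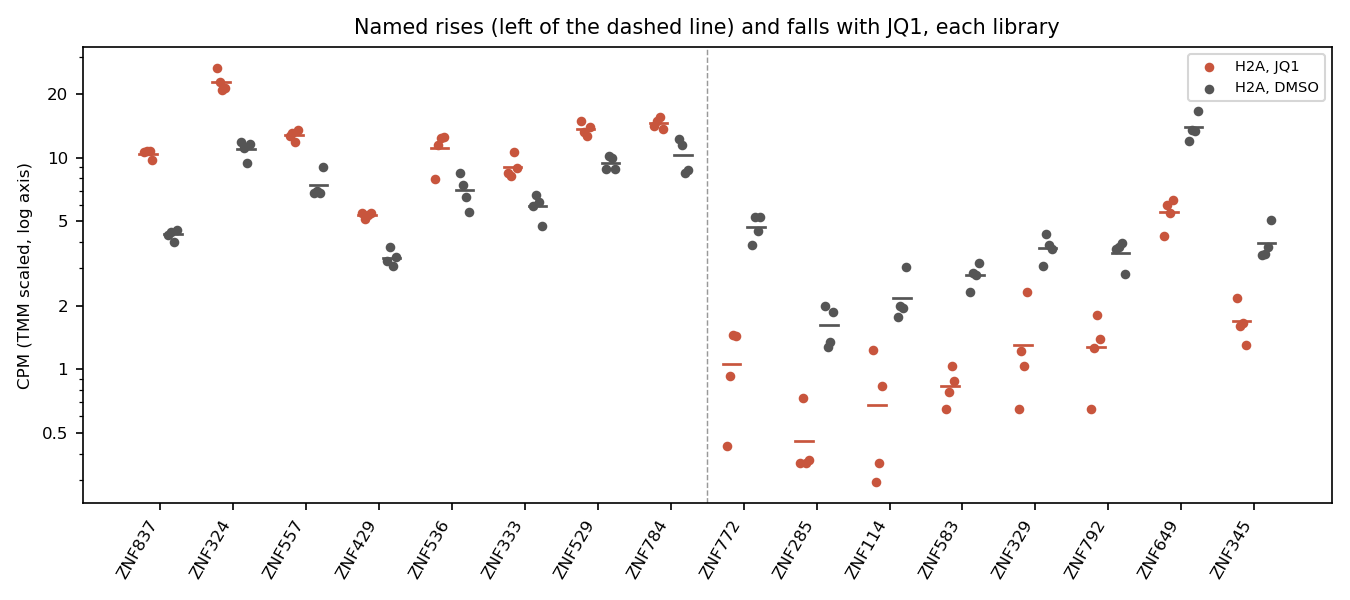
CPM (log axis) of the named members that rose (left of the dashed line) or fell with JQ1, a point per library and a line at the mean, JQ1 at the left and H2A with DMSO at the right of each pair. In all 8 falls the JQ1 points lie below the controls, and among the rises the groups overlap on this scale only for ZNF536. On the TPM scale, not drawn, they also overlap for ZNF557, ZNF429, ZNF333, ZNF529 and ZNF784, through JQ1 replicate 1.

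Of the 10 rises, 2 reached 1 on the log2 scale. ZNF837 (ENSG00000152475, chr19:58367618-58381060, reverse strand), whose exons are 70.1% GC, had 10.6, 10.7, 10.7 and 9.75 CPM with JQ1, against 4.32, 4.48, 3.99 and 4.58 CPM with DMSO. The log2 fold change was 1.26 ± 0.15 (edgeR adjusted p = 1.63e-05), and no library of the groups overlapped. ZNF324 (ENSG00000083812, chr19:58467045-58475436) had 26.6, 22.7, 20.9 and 21.3 CPM with JQ1, against 11.8, 11.1, 9.43 and 11.6 CPM with DMSO (1.06 ± 0.16, edgeR adjusted p = 0.000116). It shares 34.2% of its exon windows, mostly with ZNF446, so that its split of reads is uncertain. ZNF557 rose by 0.79 ± 0.14, ZNF429 by 0.67 ± 0.17, ZNF333 by 0.62 ± 0.13, ZNF529 by 0.53 ± 0.12 and ZNF784 by 0.51 ± 0.14. For each of these genes, JQ1 replicate 1 lay below every control on the deposited TPM scale, and the other JQ1 libraries above. For ZNF784 that replicate had 11.5 TPM, against 12.9 to 20.4 TPM with DMSO. ZNF536, a neural factor that holds back neuronal differentiation in mouse cells, had 7.98, 11.5, 12.4 and 12.5 CPM with JQ1, against 8.48, 7.45, 6.55 and 5.56 CPM with DMSO. It rose by 0.67 ± 0.16, with JQ1 replicate 1 inside the range of the controls in CPM and below all of them in TPM. ZNF761 and ZNF574 completed the rises, at 0.49 ± 0.15 and 0.42 ± 0.14. By library size alone 3 members were higher and 78 lower. By that scaling 433 of all genes were higher and 2605 lower, and their median was -0.14.

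By position, the members fall into 17 groups separated by more than 1 Mb, of which 8 hold at least 5 tested members. Coordinates are those of the files, in GRCh38. The share that fell with JQ1 was 19.6% of 56 members before the widest gap (6.10 Mb, between ZNF254 and ZNF536) and 35.8% of 148 after it. All tested members together stood at 31.4%. The medians were -0.06 before and -0.33 after the gap. They were -0.11 and -0.43 without JQ1 replicate 1, -0.24 and -0.51 by library size alone, and -0.27 and -0.42 on the log2(TPM + 1) scale. No test was made of the difference between positions, and neighbours that arose by duplication are not independent.

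The group from ZNF575 to ZNF296 (chr19:43525497-45076588) had 13 of 23 tested members lower and none higher, with a median of -0.64. They were ZNF576, ZNF283, ZNF45, ZNF155, ZNF230, ZNF222, ZNF223, ZNF225, ZNF234, ZNF226, ZNF227, ZNF112 and ZNF285. ZNF234, with 2.64 ± 0.573 CPM with JQ1 and 5.42 ± 0.384 CPM with DMSO, fell by 1.05 (SE 0.15). ZNF230 had 2.11 ± 0.454 CPM with JQ1 and 4.68 ± 1.15 CPM with DMSO, and fell by 1.16 (SE 0.21). ZNF223 shares 61.9% of its windows, mostly with AC067968.1, so its value is uncertain. ZNF224 of the same group, a KRAB repressor of the aldolase A gene, was named for its role after its values were seen and did not pass the test. It had 7.32, 3.03, 3.36 and 3.26 CPM with JQ1, against 4.43, 4.51, 4.07 and 4.92 CPM with DMSO, so that replicate 1 lay above and the other JQ1 libraries below every control.

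The group from ZNF565 to ZNF573 (chr19:36182060-37817300) had 11 of 25 tested members lower and 1 higher, with a median of -0.46 and 24 of 25 estimates below 0. The exception was ZNF529. The small group from ZNF807 to ZNF792 (chr19:34542462-34964049) had 4 of 5 lower, namely ZNF302, ZNF181, ZNF30 and ZNF792, with a median of -0.95. ZNF181 had 3.62 ± 0.520 CPM with JQ1 and 8.10 ± 1.80 CPM with DMSO. In the group of the chromosome's end, from ZNF628 to ZNF446 (chr19:55476332-58481230), 17 of 53 were lower, 3 higher, and the median was -0.20. It holds both the largest fall, ZNF772, and the largest rise, ZNF837.

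The other groups with at least 5 tested members had smaller shares lower. From ZNF175 to ZNF331 (chr19:51571298-53580269) 6 of 32 fell and 1 rose, with a median of -0.23. From ZNF101 to ZNF254 (chr19:19668796-24129961) 4 of 21 fell and 1 rose, with a median of -0.06. That median was 0.01 with a correction for GC content, -0.11 without JQ1 replicate 1, -0.23 by library size alone and -0.21 on the log2(TPM + 1) scale. This group holds 41 members, of which 20 did not pass the filter, and ZNF91, which represses SVA elements. From ZNF653 to ZNF791 (chr19:11483427-12640098) 4 of 18 fell, with a median of -0.09, and from ZNF557 to ZNF846 (chr19:7069444-9793180) 3 of 12 fell and 1 rose, with a median of -0.15. Without JQ1 replicate 1 the count lower was 14 of 24 in the ZNF575 group, 11 of 25 in the ZNF565 group, 6 of 18 in the ZNF653 group and 16 of 53 in the ZNF628 group. In the ZNF653 group that is 1.5 times the count with all libraries, and its median was -0.17 without that replicate and -0.33 on the log2(TPM + 1) scale. The median of the ZNF628 group was -0.31 without that replicate.

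The longest stretch of neighbouring tested members that all fell, picked after the values were seen and given with no test, was ZNF551, ZNF776, ZNF586, ZNF552 and ZNF587B (chr19:57681969-57846238). ZNF586 had 2.45 ± 0.400 CPM with JQ1 and 5.67 ± 1.22 CPM with DMSO and fell by 1.21 (SE 0.17). The others of this stretch fell by 0.67 to 0.80. ZNF552 overlaps ZNF586 on the opposite strand and shares 18.4% of its windows, mostly with ZNF587B, so these 5 are not separate measurements throughout.

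**Figure D3:**
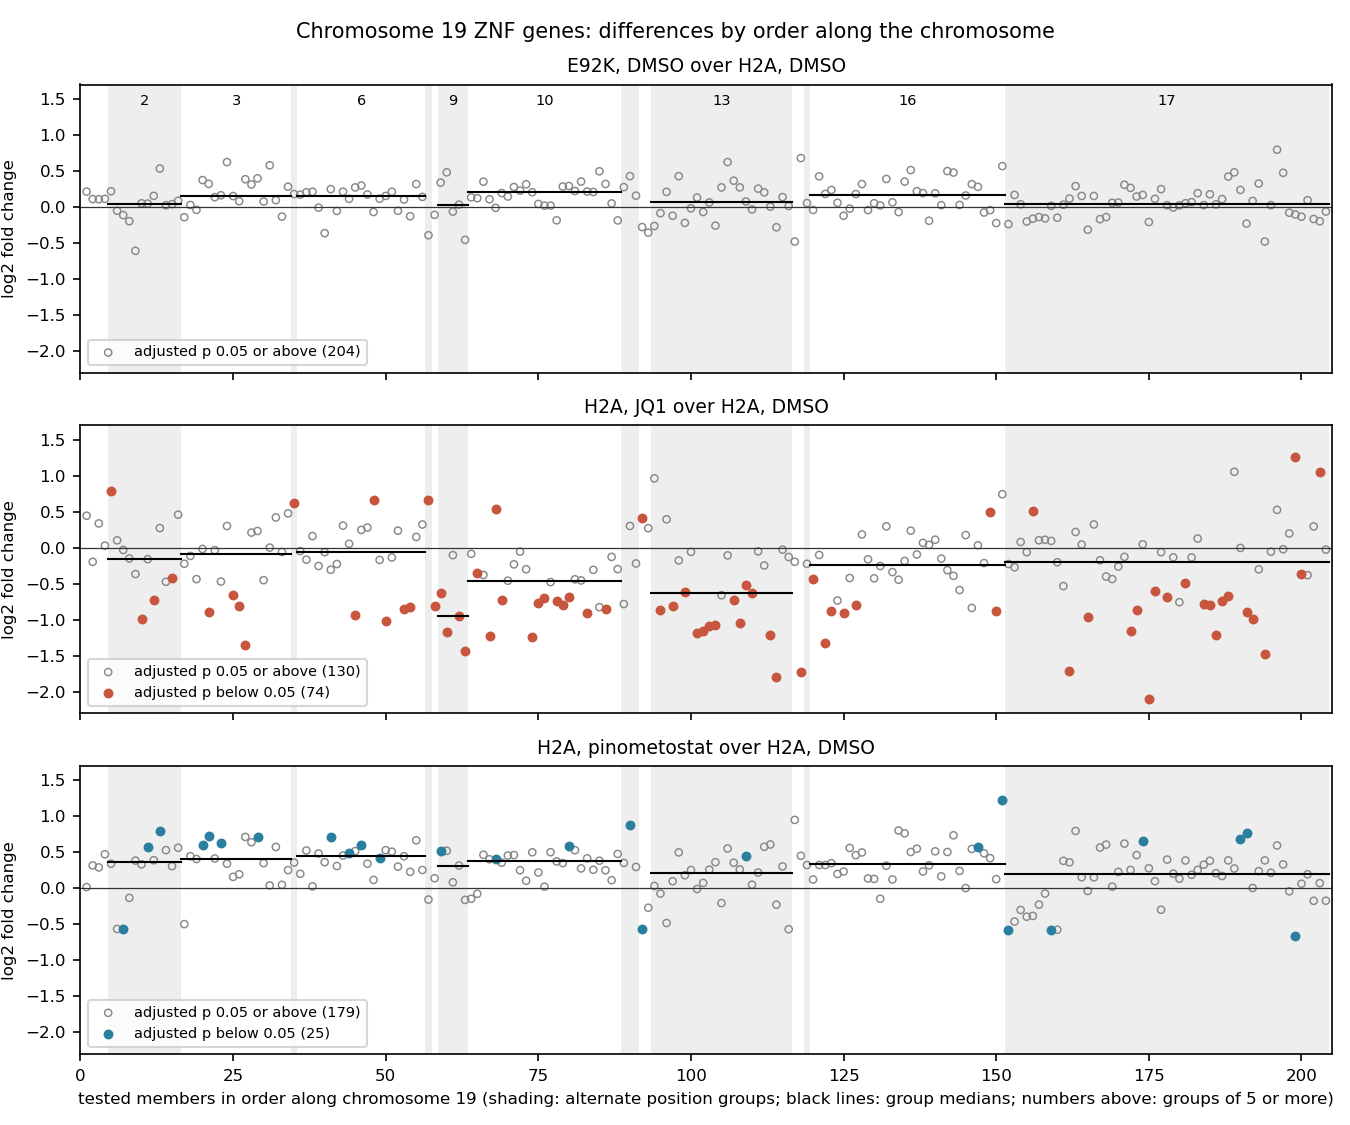
Log2 fold change of the 204 tested members in their order along chromosome 19, for E92K (top), JQ1 (middle) and pinometostat (bottom), each over H2A with DMSO. Filled points passed an adjusted p below 0.05, shading marks alternate position groups and black lines are medians of groups with at least 5 tested members. The JQ1 medians of groups 9, 10 and 13 are -0.95, -0.46 and -0.64, and the pinometostat medians of the 8 groups run from 0.21 to 0.45.

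By features of the proteins, 43 of 123 tested members with the KRAB motif letters fell with JQ1 and 4 rose, with a median of -0.34. Among 79 coding members without these letters 21 fell and 6 rose, with a median of -0.11. These include the coding members tested between ZNF653 and ZNF791, where the letters miss KRAB proteins such as ZNF441 and ZNF799. The split is thus by motif letters and not by KRAB domain. The number of C2H2 motifs had a Spearman rho of 0.00012 with the JQ1 fold change over 202 members, and the GC content one of 0.21 over 204. Of the 24 members with at least 55% GC, 5 rose and 0 fell, although 2 fell with a per-library GC correction. These correlations are across genes of the same libraries, not across independent replicates.

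After 24 h of pinometostat 20 of the 204 members rose and 5 fell (adjusted p below 0.05, same edgeR fit), where 3.62% of all genes rose and 4.58% fell, or 8.2% together. The median log2 fold change of the members was 0.32, against 0.03 over all genes, and 172 of the 204 estimates were above 0. In 51 members all 4 pinometostat libraries lay above all H2A libraries with DMSO (25%, against 12.7% of all genes), and in 9 all lay below (13.5% of all genes). ZNF genes elsewhere had 26 of 244 higher and 9 lower with a median of 0.16, and other genes of chromosome 19 had 15 of 977 higher and 150 lower with a median of -0.18. The counts depended on the libraries and the scaling. Leaving out H2A with DMSO replicate 1, 2 or 3 left 2, 7 or 6 members higher and 0, 2 or 3 lower, while without H2A with DMSO replicate 4 there were 29 higher and 5 lower. Leaving out pinometostat replicate 1, 2, 3 or 4 left 4, 11, 6 or 7 higher and 0, 3, 0 or 2 lower. Without JQ1 replicate 1, which shares the fit, 35 were higher and 14 lower. Calls over all genes moved too. Leaving out 1 replicate of either group gave 79 to 679 of all genes higher and 204 to 867 lower. Without JQ1 replicate 1 these were 1269 and 2432, against 626 and 793 with all 16 libraries.

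The size of the difference moved with GC content. Over the 204 members the Spearman rho of the pinometostat fold change with exon GC was -0.45, and with a per-library GC correction it was -0.27. The 68 members with the lowest GC had a median of 0.43 with 13 higher, and the 68 with the highest GC a median of 0.09 with 5 higher and 5 lower. With the GC correction 2 members rose and 5 fell and the median was 0.16, where 263 of all 17306 genes rose and 682 fell with a median of -0.05. The part of GC content in the rises was not tested beyond this. On the log2(TPM + 1) scale 1 rose, ZNF331, and 5 fell, namely ZNF358, ZNF414, ZNF428, ZNF579 and ZNF787, where 69 of all genes rose and 388 fell. The median on that scale was 0.13 for the members and -0.09 for all genes. The members' median thus stood above that of all genes by 0.29 with the main scaling, by 0.21 with the GC correction and by 0.22 on the log2(TPM + 1) scale.

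**Figure D4:**
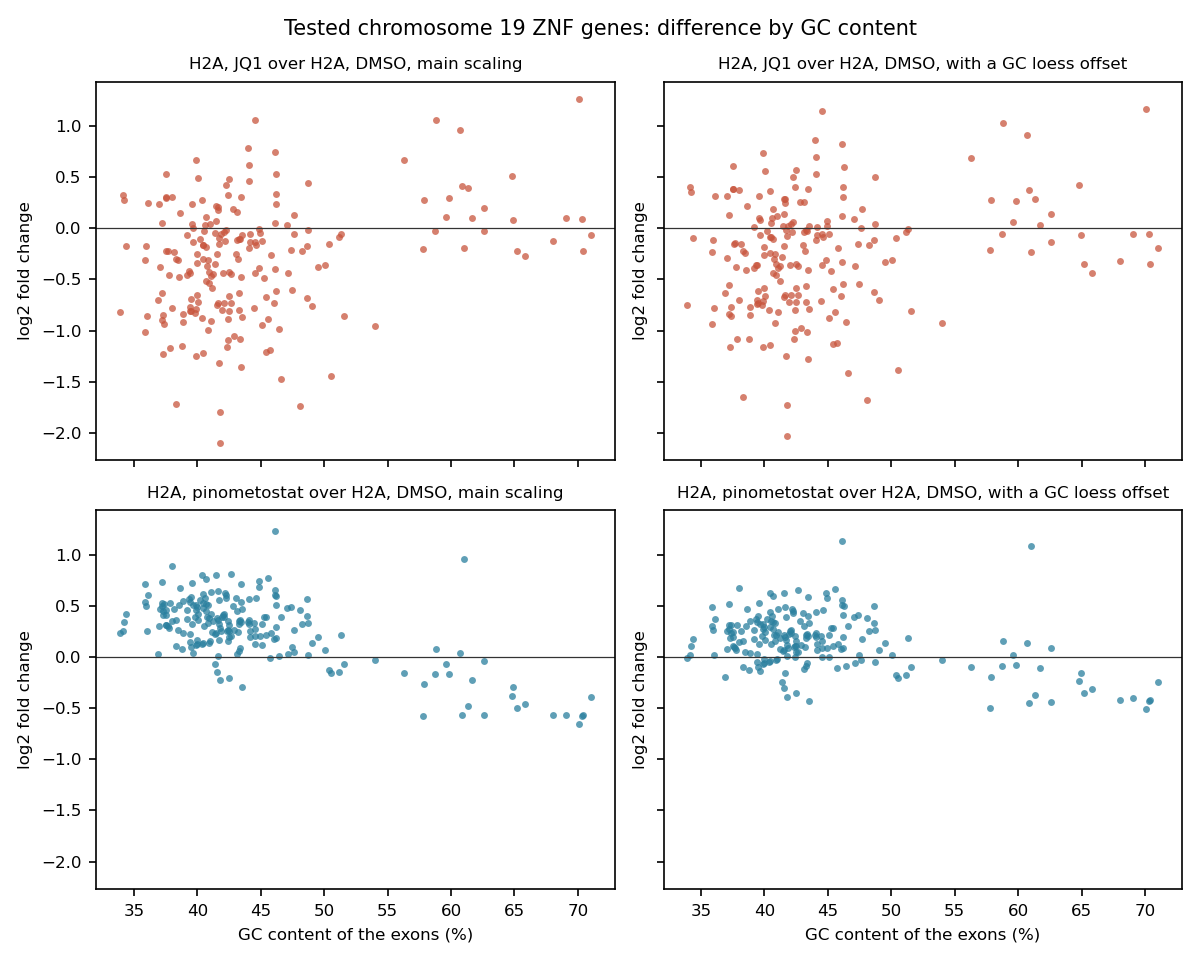
Log2 fold change of the 204 tested members against the GC content of their exons (%), for JQ1 (upper panels) and pinometostat (lower panels) over H2A with DMSO, with the main scaling (left) and a GC correction (right). With pinometostat the median of the 24 members of at least 55% GC is -0.39 with the main scaling and -0.24 with the correction, and that of the 68 members lowest in GC is 0.43 and 0.24.

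ZNF331 (ENSG00000130844, chr19:53520981-53580269), an imprinted KRAB gene, had the largest rise. Each of the 13 members named for pinometostat lost its call in some of 25 other settings, from 4 for ZNF441 and 9 for ZNF331 to 13 for ZNF121. ZNF331 had 7.74, 8.24, 5.10 and 7.33 CPM with pinometostat, against 2.74, 3.98, 2.81 and 2.59 CPM with DMSO (1.23 ± 0.33, edgeR adjusted p = 0.0308). The groups did not overlap, but JQ1 replicate 1, at 10.2 CPM against 3.05 to 4.05 in the other JQ1 libraries, was higher still. ZNF121 (ENSG00000197961, chr19:9560353-9584533) was the most abundant of the named rises, with 46.3, 56.8, 44.2 and 54.7 CPM with pinometostat, against 28.4, 28.6, 28.7 and 30.1 CPM with DMSO (0.80 ± 0.23, edgeR adjusted p = 0.0421). It too was at 55.3 CPM in JQ1 replicate 1 and at 61.2 CPM in E92K replicate 4, the libraries with the high mitochondrial shares, and the part of that in its level was not tested. ZNF441 (ENSG00000197044, chr19:11767000-11784078) had 5.01, 4.65, 4.20 and 4.56 CPM with pinometostat, against 2.93, 2.76, 2.52 and 2.85 CPM with DMSO (0.73 ± 0.16, edgeR adjusted p = 0.0132). Its level with JQ1 was 1.48 ± 0.351 CPM, a fall of 0.90 on the log2 scale (SE 0.18), and both comparisons share the H2A libraries with DMSO.

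ZNF417 and ZNF587, near-identical KRAB proteins that bind endogenous retroviruses, rose by 0.77 ± 0.22 and 0.69 ± 0.17. ZNF417 had 6.13, 4.95, 4.35 and 5.05 CPM with pinometostat, against 3.00, 3.00, 2.72 and 3.27 CPM with DMSO. ZNF417 shares 40.1% of its windows with other genes, mostly ZNF587, so that both values are not separate measurements. ZNF780B rose by 0.89 ± 0.25, ZNF799 by 0.72 ± 0.19 and ZNF85 by 0.71 ± 0.20, and ZNF799 shares 25.1% of its windows, mostly with ZNF443. The libraries of ZNF85 overlapped, at 7.21, 4.01, 5.80 and 5.85 CPM with pinometostat, against 2.85, 3.17, 3.54 and 4.39 CPM with DMSO. ZNF266 and ZNF749 are named after their values were seen, as the only rises called with the GC correction. The estimates of the others stayed above 0 with it, at 1.13 for ZNF331, 0.67 for ZNF417, 0.57 for ZNF587, 0.62 for ZNF121 and 0.51 for ZNF441. ZNF266 had 37.0, 40.1, 37.6 and 38.9 CPM with pinometostat, against 25.004, 26.6, 22.9 and 28.7 CPM with DMSO. Its log2 fold change was 0.57 ± 0.10 (edgeR adjusted p = 0.00587) and 0.45 with the correction (edgeR adjusted p = 0.0120). ZNF749 had 17.6, 12.6, 12.6 and 13.4 CPM with pinometostat, against 7.51, 9.23, 9.23 and 9.69 CPM with DMSO, and rose by 0.66 ± 0.16.

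All 5 falls were of genes with at least 60.9% GC in their exons. ZNF837 had 2.91, 3.25, 2.20 and 2.64 CPM with pinometostat, against 4.32, 4.48, 3.99 and 4.58 CPM with DMSO (-0.66 ± 0.16, edgeR adjusted p = 0.0214). ZNF787, among the 6 most abundant, had 30.3, 35.4, 28.6 and 31.9 CPM with pinometostat, against 49.2, 43.1, 47.0 and 49.6 CPM with DMSO (-0.58 ± 0.17, edgeR adjusted p = 0.0406). ZNF628, ZNF414 and ZNF574 fell by 0.57, 0.57 and 0.56 on the log2 scale. In all 5 the groups did not overlap. ZNF574 had 32.9, 39.7, 32.4 and 33.5 CPM with JQ1, above all the controls, and 14.6, 20.5, 15.8 and 19.2 CPM with pinometostat, below all of them, against 30.6, 27.2, 25.2 and 20.7 CPM with DMSO. ZNF837 likewise had 10.4 ± 0.472 CPM with JQ1 and 2.75 ± 0.442 CPM with pinometostat, against 4.34 ± 0.261 CPM with DMSO. On the TPM scale, ZNF574 stood at 11.8 TPM in JQ1 replicate 1, below every control (13.6 to 22.5 TPM). With the GC correction ZNF787, ZNF628, ZNF414, ZNF574 and ZNF358 were called lower. ZNF428, the most abundant member, had 39.5, 41.5, 40.5 and 39.8 CPM with pinometostat, against 57.0, 55.6, 55.7 and 56.7 CPM with DMSO. Its groups did not overlap, but its difference of -0.48 ± 0.22 did not pass the test (edgeR adjusted p = 0.189), and SRRM5 overlaps it on the opposite strand.

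**Figure D5:**
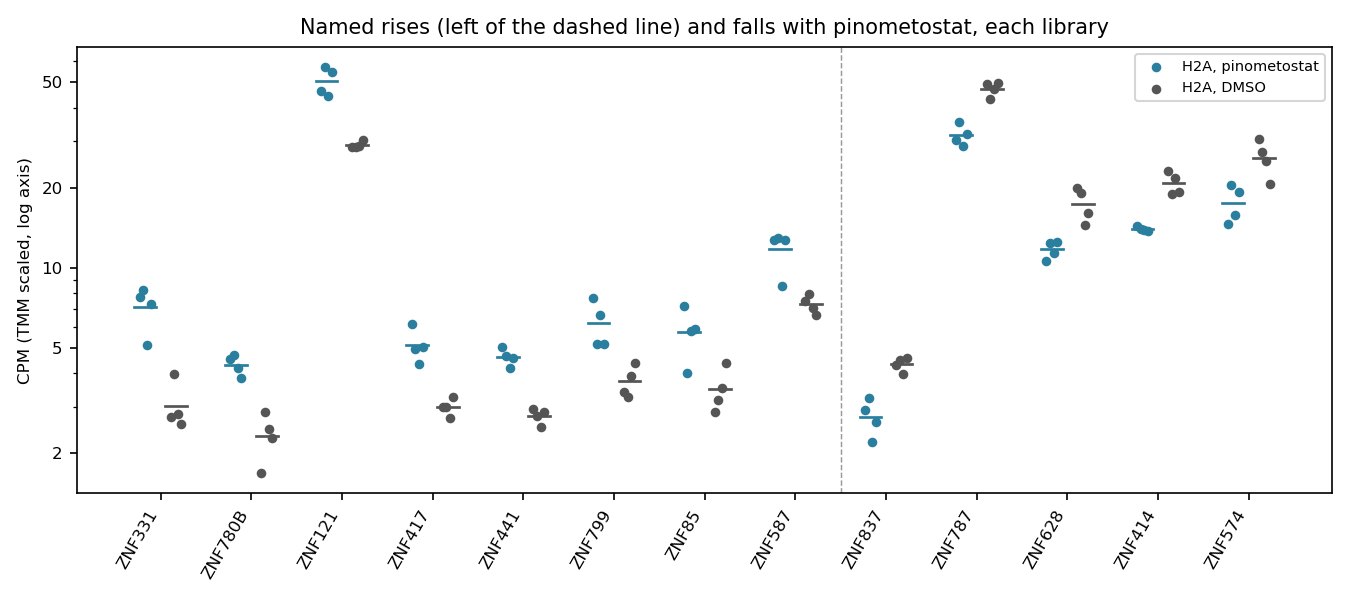
CPM (log axis) of the named members that rose (left of the dashed line) or fell with pinometostat, a point per library and a line at the mean, pinometostat at the left and H2A with DMSO at the right of each pair. The groups overlap only for ZNF85, and ZNF121 stands highest among the rises, at 44.2 to 56.8 CPM with pinometostat.

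By position, pinometostat rises made up 10 of 56 tested members before the widest gap (17.9%) and 10 of 148 after it (6.76%), with medians of 0.39 and 0.26 and no test of the difference. These counts are with the main scaling. With the GC correction the only rises were ZNF266, which lies before the gap, and ZNF749, which lies after it. On the log2(TPM + 1) scale the only rise, ZNF331, lies after it. With the main scaling the ZNF653 to ZNF791 group had 4 of 18 higher, ZNF441, ZNF700, ZNF799 and ZNF823, and the ZNF101 to ZNF254 group had 4 of 21, ZNF85, ZNF100, ZNF431 and ZNF738. With the GC correction each of these groups had 0 higher, with medians of 0.26 and 0.23. Of the 5 falls, ZNF628, ZNF787 and ZNF837 lie in the group at the chromosome's end.

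In cells with H2A(E92K) 0 of 204 members passed the threshold, as for 0 (0%) of all 17306 genes in edgeR. At an unadjusted p below 0.05 there were 13 members (6.37%, 11 higher and 2 lower), against 7.49% of all genes. DESeq2 and limma-voom called 0 members. Limma-voom with library quality weights, which lower the influence of a library that stands apart, called ZNF823, ZNF302, ZNF701 and ZNF845 higher and ZNF865 lower, where it called 476 of all 17306 genes higher and 622 lower. In 7 members all 4 E92K libraries lay above the controls (3.43%, against 1.99% of all genes), and in 0 all lay below (3.18% of all genes). The median over the members was 0.11, against 0.00 over all genes, and became 0.05 with the GC correction. On the log2(TPM + 1) scale it was -0.0041, against -0.09 over all genes. Without E92K replicate 4 it was 0.05, without H2A DMSO replicate 1 also 0.05, and without H2A DMSO replicate 4 it was 0.18. The estimates ran from -0.61 for ZNF699 to 0.79 for ZNF544. ZNF121 had 26.6, 32.5, 47.3 and 61.2 CPM in E92K cells, against 28.4 to 30.1 CPM in H2A cells with DMSO, with an SD of 15.5 CPM in E92K cells.

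ZNF274, ZNF91 and ZNF473 were named for described roles after their values were seen, and none passed the test. ZNF274, which brings SETDB1 to zinc finger gene clusters, had 15.7 ± 1.82 CPM in E92K cells, 14.9 ± 0.947 CPM with JQ1 and 17.98 ± 2.69 CPM with pinometostat, against 15.5 ± 0.736 CPM in H2A cells with DMSO. ZNF91 had 3.81 ± 1.201 CPM in E92K cells, 4.70 ± 1.25 CPM with JQ1 and 4.88 ± 0.461 CPM with pinometostat, against 3.95 ± 0.275 CPM in H2A cells with DMSO. ZNF473, a factor in 3′ processing of histone transcripts, had 21.6 ± 4.18 CPM in E92K cells, 17.8 ± 3.90 CPM with JQ1 and 26.1 ± 4.38 CPM with pinometostat, against 20.8 ± 7.12 CPM in H2A cells with DMSO (SD, n = 4 each). Their groups overlapped except for ZNF91 with pinometostat, where all 4 libraries were above the controls.

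Genes of the machinery that KRAB proteins work through were read from a list chosen with earlier results of these data known. Of 25 genes of the KRAB corepressor and heterochromatin machinery, 2 rose and 4 fell with JQ1, 1 rose and 2 fell with pinometostat, and 0 changed in E92K cells, where 7.16% of all genes rose and 10.4% fell with JQ1, and 3.62% rose and 4.58% fell with pinometostat. No test was made of the list's counts. The median log2 fold change of the list was 0.15 with JQ1, -0.22 with pinometostat and 0.01 in E92K cells. TRIM28, the scaffold that KRAB binds, stands at chr19:58544091-58550722, just past the last zinc finger group. It rose with JQ1, at 757 ± 144 CPM against 491 ± 39.2 CPM with DMSO (0.63 ± 0.13, edgeR adjusted p = 0.00229), with JQ1 replicate 1 at 971 CPM and the other JQ1 libraries at 664 to 701 CPM, and fell with pinometostat, at 324 ± 24.2 CPM against the same 491 ± 39.2 CPM with DMSO (-0.60 ± 0.13, edgeR adjusted p = 0.0129). Without H2A DMSO replicate 1 the pinometostat difference of TRIM28 was -0.56 and did not pass (edgeR adjusted p = 0.0518), and on the log2(TPM + 1) scale its JQ1 difference was 0.31 (limma adjusted p = 0.118). SETDB1 fell with JQ1, at 49.9 ± 4.23 CPM against 68.2 ± 2.06 CPM with DMSO (-0.45 ± 0.10, edgeR adjusted p = 0.00381). SUV39H1, another methyltransferase of the same histone lysine, fell by 0.64 with JQ1 (SE 0.10), and DAXX, a histone chaperone, by 0.42 (SE 0.08). FAM208A, a subunit of the HUSH silencing complex, fell by 0.36 (SE 0.10), and CBX5, a heterochromatin protein, rose by 0.42 ± 0.13. With pinometostat the methyltransferase EHMT2 fell by 0.45 (SE 0.11) and ATF7IP2 rose by 0.60 ± 0.14.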

How the data were processed

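RNA of 16 HEK293T libraries (4 per group) was analysed. The authors deposited raw read counts per gene, 1 file per library, whose layout is that of featureCounts per the file headers, and a series table with the same counts. The deposited TPM values equal the counts divided by exonic length and scaled, within 5e-05. Aligner, counter, strand setting and trimming have no source here. No deposited column of per-sample values was left unused (0 columns).

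Counts were filtered (filterByExpr, minimum count 10, minimum total 15), TMM-scaled and fitted with edgeR 4.0.16 in R 4.3.3 in 1 quasi-likelihood fit of 4 group means over 16 libraries (12 residual degrees of freedom). Two-sided p-values were adjusted by Benjamini-Hochberg across the 17306 genes tested, with a threshold of 0.05. A standard error is the fold change over the root of F. Coordinates are those of the files in GRCh38, of which 247 of 261 members match GENCODE 29 in start and end. GC values and the exon windows of a member come from the longest GENCODE 29 transcript of each gene. Protein motif values come from GENCODE 29 coding sequence and promoters from RefSeq. The fit was tested on simulated counts: of genes changed 2-fold it recovered 74.6% for E92K, 65.7% for JQ1 and 70.1% for pinometostat. Of genes changed 1.5-fold it recovered 34.3% for E92K, 17.9% for JQ1 and 31.3% for pinometostat, so many changes of that size would be missed. No replicate pair agreed within counting noise (lowest chi-square per degree of freedom 3.72).

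Named genes are, per comparison, the 8 largest rises and falls among called members with at least 1 CPM, and the 6 most abundant members. The members follow a rule of symbol and chromosome that uses no measured value. That rule, the lists and the alternatives were set with earlier results of these data known. Alternatives were scaling, filter, tool (limma 3.58.1, DESeq2 1.42.0), block, threshold, libraries, TPM with a pseudocount of 1, GC and length offsets. Leaving JQ1 replicate 1 or E92K replicate 4 out of comparisons that do not contain them and restricting to members with little shared sequence were added after seeing the data.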

Additional observations from a re-analysis of the deposited data

Results flagged for a closer look

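In groups of 4 libraries, a library was singled out when its gap to the nearest other exceeded Dixon's 95% critical value as a share of the range. This held for 18 of 152 groups, where chance gives about 1 in 20 for independent groups. These groups share the same 16 libraries, so this comparison cannot show an excess over chance. No explanation was tested.

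JQ1 replicate 1 was the library in 6 of the 18. It had a mitochondrial share of 16.4706% (3.04% to 3.69% in the other JQ1 libraries) and a summed level of 793.644 TPM (1138 to 1197 TPM). In it ZNF331 had 10.1528 CPM (3.05 to 4.05), ZNF121 55.333 CPM (27.0 to 30.7), ZNF428 131.479 CPM (53.0 to 56.4) and TRIM28 971.192 CPM (664 to 701).

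Other JQ1 libraries were apart for ZNF837 (replicate 4, 9.74722 CPM, others 10.6 to 10.7), ZNF285 (replicate 2, 0.732415 CPM, others 0.362 to 0.373) and ZNF574 (replicate 2, 39.6969 CPM, others 32.4 to 33.5).

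Among E92K libraries, replicate 2 was apart for ZNF649 (17.9682 CPM, others 14.8 to 15.3), and replicate 4 for ZNF799 (6.21804 CPM, others 4.43 to 4.55) and ZNF358 (64.6407 CPM, others 45.7 to 48.8). Among pinometostat libraries, replicate 3 was apart for ZNF587 (8.55198 CPM, others 12.7 to 12.98) and replicate 1 for SETDB1 (66.8613 CPM, others 58.2 to 59.3).

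Among H2A libraries with DMSO, replicate 4 was apart in the summed level (1897.84 CPM, others 1729 to 1752), in ZNF557 (9.04969 CPM, others 6.80 to 6.97) and in ZNF121 (30.1156 CPM, others 28.4 to 28.7), and replicate 2 in ZNF331 (3.97524 CPM, others 2.59 to 2.81).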

How the results depend on the processing

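For E92K, 0 members were called in each setting except limma-voom with quality weights (4 higher, 1 lower). For JQ1, the counts higher and lower were 6 and 42 at an adjusted p below 0.01, 3 and 78 by library size alone, 6 and 51 with the 8 libraries of both groups, 16 and 76 with quality weights, 2 and 72 on log2(TPM + 1), and 4 and 33 of the 104 members with little shared sequence and no opposite-strand overlap. Over all genes they were 433 and 2605 by library size alone and 505 and 1367 with the 8 libraries. They were 2921 and 2841 with quality weights, and 209 and 2174 on log2(TPM + 1). Leaving out 1 replicate gave 8 to 11 members higher and 52 to 69 lower, and 734 to 1456 of all genes higher and 1461 to 2099 lower. Among the members named for their JQ1 change or abundance, the JQ1 estimates that turned sign belong to 5 abundant, uncalled ones (others near 0 also turned, such as ZNF587, at -0.0032 and with the GC offset 0.068): by library size ZNF358 -0.12, ZNF581 -0.082, ZNF580 -0.083 and ZNF787 -0.12; with the GC offset ZNF358 -0.058 and ZNF787 -0.056; with quality weights ZNF358 -0.12 and ZNF787 -0.11; on TPM ZNF428 -0.015, ZNF358 -0.24, ZNF581 -0.19, ZNF580 -0.19 and ZNF787 -0.24. Without both high-mitochondrial libraries ZNF428 was -0.052, ZNF358 -0.17 and ZNF787 -0.16. Leaving out 1 replicate gave -0.062 to 0.54 for ZNF428, -0.19 to 0.25 for ZNF358 and -0.17 to 0.21 for ZNF787.

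For pinometostat, the counts higher and lower were 1 and 0 at an adjusted p below 0.01, 54 and 13 with the 8 libraries of both groups, 83 and 14 with quality weights, 61 and 14 without both high-mitochondrial libraries, and 35 and 14 without JQ1 replicate 1. Over all genes the counts were 2088 and 2522 with the 8 libraries and 2901 and 2647 with quality weights. They were 2252 and 2530 without both high-mitochondrial libraries, and 1269 and 2432 without JQ1 replicate 1. The main fit gave 626 and 793 over all genes. By library size 10 members were higher, with the GC offset 2 (where ZNF581 turned to 0.023), on TPM 1 and with little shared sequence 12 of 104. With upper quartile scaling 3 members were lower and with DESeq2 8, where 580 and 1480 of all genes were lower. Leaving out 1 replicate gave 2 to 29 members higher and 0 to 5 lower. Over all genes it gave 79 to 679 higher and 204 to 867 lower. The share of calls that were higher was 80% with TMM, 28.6% with the GC offset and 16.7% on TPM, against 44.1%, 27.8% and 15.1% over all genes. Of 14 named pinometostat calls, TRIM28 included, 0 were kept in all 25 settings, and of 19 with JQ1 10 were kept in all 24. The cause was not tested.

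The replicate block gave 6 members higher and 1 lower for pinometostat, and 9 and 58 for JQ1. Over all genes it gave 224 and 310 for pinometostat, and 838 and 1525 for JQ1. Samples with the same number did not all deviate together (r from -0.21 to 0.15), so the numbers were not taken as pairs. Members at low counts are limited by depth.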
